A study of Onthophagus taurus with 60 samples.

Results

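The dorsal centre of the prothorax was compared with the posterior margin of the same body segment in male prepupae of the horned beetle Onthophagus taurus. All 6 libraries of the dorsal prothorax and all 6 of the posterior margin were used, 12 of the 60 libraries of the series, paired by their replicate number. The other 48 libraries came from 6 more epidermal regions and serve here only for levels: 6 each from the anterior margin, the thoracic horn, the abdominal support structures and the dorsal head, and 12 each from the carinated margin of the prothorax and the wing of the second thoracic segment (T2 wing), where left and right pieces of the same individuals were sequenced apart. The labels give the prepupal stage and name no treatment, strain or age in days. The series description sets the dorsal prothorax apart as a contrast tissue with no published tie to wings, whereas the margins were taken as wing-related.

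The prothorax is the first segment of the insect thorax and bears no wings. In the prepupa the epidermis has detached from the larval cuticle, folds and grows into the outline of the pupa, and secretes new cuticle. The margins are the edges where the shield-like pronotum ends and folds under, and its dorsal centre is the sheet of body wall between them, from which the thoracic horn of the pupa projects.

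Total counts ran from 13670791 to 16676547 in the dorsal prothorax and from 14416562 to 19579810 in the posterior margin. Scaling factors of the trimmed mean of M-values method (TMM) ran from 1.138 to 1.308 and from 0.9927 to 1.182. The dorsal head libraries were far deeper, with 74833089 to 87268357 counts, while no library of another tissue had more than 21405259. All levels below are in TMM-scaled CPM (counts per 1000000 counts of a library), which are not corrected for transcript length, so levels are compared between tissues and not between transcripts. The factors of the horn libraries were the lowest of the series, from 0.519 to 0.6291. Horn levels below therefore stand higher than total counts alone would give, and the rank of the horn among tissues depends on the scaling. The 11 marker and pathway lists prepared for epidermis, cuticle, wing, limb, muscle, neuron, haemocyte, fat body and trachea matched 0 gene symbols, because the gene table names nearly all genes by locus number. The tissue labels could therefore not be checked against markers, and RNA from other cell types was not tested. All 12 libraries lay nearer to the mean of their own tissue than to that of the other. Replicate 4 of the posterior margin lay farthest from its own tissue mean, at a root mean squared log2 difference of 1.48 against 1.07 to 1.21 in the other 5 libraries.

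Of 12050 transcripts tested, 1282 (10.6%) differed between the dorsal prothorax and the posterior margin (edgeR quasi-likelihood test with replicate number as a block, Benjamini-Hochberg adjusted p under 0.05, termed called). The numbers were nearly even in the 2 directions, 633 higher (5.25%) and 649 lower (5.39%) in the dorsal prothorax. At least 2-fold differences were found for 259 higher (2.15%) and 301 lower (2.5%) transcripts. Large differences were more often decreases in the dorsal prothorax: 68 transcripts were at least 4-fold higher and 118 at least 4-fold lower, and 21 against 60 passed 8-fold. In these bulk samples fewer cells that express a gene and less RNA per cell cannot be told apart.

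The median log2 fold change was 0.85 among the higher and -0.93 among the lower transcripts, against -0.010 over all tested. In 1245 of the 1282 called transcripts all 6 pairs moved the same way, which also held for 2563 of the 12050 tested. The 6 dorsal and 6 posterior values did not overlap in 456 called transcripts, 193 of them higher and 263 lower in the dorsal prothorax, and in 583 of all tested. Summed over the called transcripts that were higher in the dorsal prothorax, the mean level was 118151 CPM there and 64145 CPM in the posterior margin. For those that were lower, the sums were 334426 and 498694 CPM. Without the replicate block edgeR called 609 transcripts, 276 higher and 333 lower, of which 570 were among the 1282, and fits that left out 1 pair each gave 712 to 1069 calls. With libraries scaled by total counts alone, the median of all transcripts moved to 0.153 and 73.6% of 1750 calls were higher in the dorsal prothorax, against 49.4% with TMM, so directions below are relative to the bulk of transcripts.

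**Figure D1:**
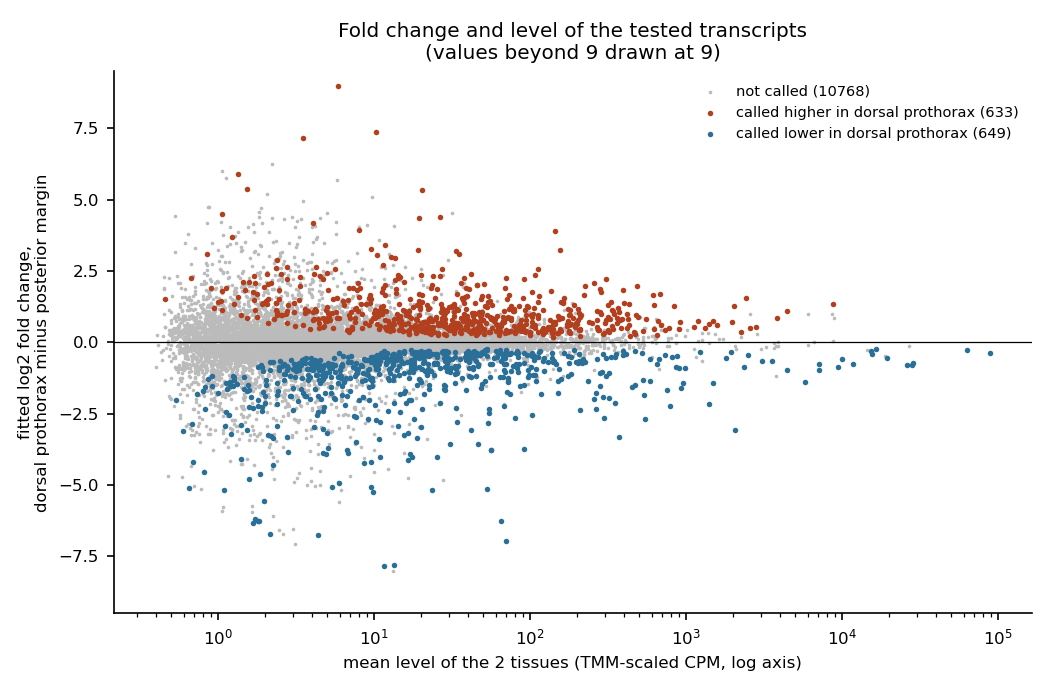
Fitted log2 fold change (dorsal prothorax minus posterior margin) against the mean level of both tissues in TMM-scaled CPM on a log axis, 1 point per tested transcript. The 633 transcripts called higher are red, the 649 called lower are blue and the rest are grey; the called points with the highest levels lie mostly below 0.

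When all transcripts of a gene were summed, 7017 genes could be tested and 1586 (22.6%) were called by edgeR, 699 higher and 887 lower. Of the 993 called transcripts whose gene had a tested sum, 948 kept their direction and call, 43 lost the call and 2 were called in the opposite direction. A further 289 called transcripts matched no gene in the table. Neither files nor gene table give products, so the transcripts below are described by their levels alone.

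Among the transcripts named for the largest increases in the dorsal prothorax, XM_023056766.1 (LOC111423526) had the smallest adjusted p. Its lowest, median and highest levels were 192, 241 and 387 CPM in the dorsal prothorax and 11.7, 16.9 and 30.4 CPM in the posterior margin. Every dorsal library stood above every posterior one. The means were 269 ± 80.1 and 18.5 ± 7.05 CPM (SD, n = 6), a log2 fold change of 3.89 ± 0.10 (SE; edgeR adjusted p = 7.5e-05). The level was low in the anterior margin (19.8 CPM), the carinated margin (8.42 CPM), the wing (7.01 CPM) and the dorsal head (5.6 CPM). It was high in the thoracic horn at 153 ± 33.1 CPM and in the support structures at 308 ± 74.4 CPM, so in this transcript the dorsal prothorax was nearer to both projections of the body wall than to the margins.

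XM_023056543.1 (LOC111423298) ran from 22.6 through a median of 37.4 to 42.1 CPM in the dorsal prothorax and from 2.08 through 3.58 to 5.17 CPM in the posterior margin. The groups did not overlap, and the log2 fold change was 3.22 ± 0.12 (edgeR adjusted p = 0.00016). The horn came next at 27.7 ± 6.88 CPM, whereas the support structures had 0.353 ± 0.198 CPM. XM_023054309.1 (LOC111421165) ran from 8.87 through 25.6 to 91.1 CPM and from 0.257 through 1.12 to 6.08 CPM, with a log2 fold change of 4.34 ± 0.39 (edgeR adjusted p = 0.0016). Its values varied widely between libraries of either tissue, and the groups did not overlap. The same order in all 6 pairs was a condition for naming a transcript by size of change or by level. The wing had 7.03 CPM and the support structures 0.0567 CPM.

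A pair of transcripts was nearly absent from the posterior margin. XM_023059846.1 (LOC111425664) had 4.36 to 18.1 CPM in the dorsal prothorax (median 12.6) and 0 counts in all 6 posterior libraries. Against 3 counts over those 6 libraries, a bound for counting error only, it was at least 436-fold higher (edgeR adjusted p = 0.04). The bound leaves out that reads are divided by estimation between this and the gene's other transcripts. The call held in 1 of 6 fits that each left out a pair, the one without replicate 4, with adjusted p up to 0.063 in the others. The gene's summed transcripts differed less, with a log2 fold change of 2.35 (edgeR adjusted p = 0.00015), so other transcripts of the gene did have counts in the posterior margin. XM_023044414.1, which matched no gene, ran from 15 through 20.7 to 24 CPM in the dorsal prothorax. It had 0 in 4 posterior libraries and 0.321 and 1.03 CPM in the other 2 (log2 fold change 7.39 ± 1.07, edgeR adjusted p = 0.0088). The wing had the highest level of this transcript with 26.7 ± 5.2 CPM, above the anterior margin at 2.22 CPM and the carinated margin at 2.88 CPM.

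XM_023062586.1, also without a gene, ran from 10.1 through 30.6 to 144 CPM in the dorsal prothorax and from 0.188 through 2.53 to 4.52 CPM in the posterior margin (log2 fold change 4.40 ± 0.64, edgeR adjusted p = 0.0088). The dorsal prothorax was not its main site. The horn had 408 ± 564 CPM and the support structures 281 ± 375 CPM, both with a spread wider than their mean. XM_023065013.1 (LOC111429171) varied strongly with the replicate number: number 4 had 1187 CPM in the dorsal prothorax and 63.1 CPM in the posterior margin, both the highest of their tissue. The other 5 pairs ran from 33.3 to 342 and from 6.44 to 15.5 CPM. The log2 fold change was 3.25 ± 0.43 with the replicate block (edgeR adjusted p = 0.0062), and without it 3.99 with an adjusted p of 0.06.

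Of the 12 transcripts named for the largest increases, 9 were called in every fit that left out a pair. The exceptions were XM_023059846.1, XM_023055472.1 (LOC111422274), called in 2 of 6 such fits, and XM_023061434.1, called in none. XM_023055472.1 had 21 ± 8.41 CPM against 2.49 ± 2.06 CPM and XM_023061434.1 6.53 ± 1.85 CPM against 0.439 ± 1.08 CPM. Values of XM_023052514.1 (LOC111419668), XM_023054874.1 and the non-coding XR_002706377.1 overlapped between tissues, and their 6 pairs went the same way by the rule of choice. Their means were 39.6 ± 45.3 against 0.979 ± 1.53 CPM, 17.3 ± 7.34 against 1.68 ± 0.863 CPM and 7.6 ± 6.23 against 0.5 ± 0.508 CPM. XR_002706377.1 and XM_023061434.1 also lost the call without the replicate block, with edgeR adjusted p of 0.058 and 0.14.

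**Figure D2:**
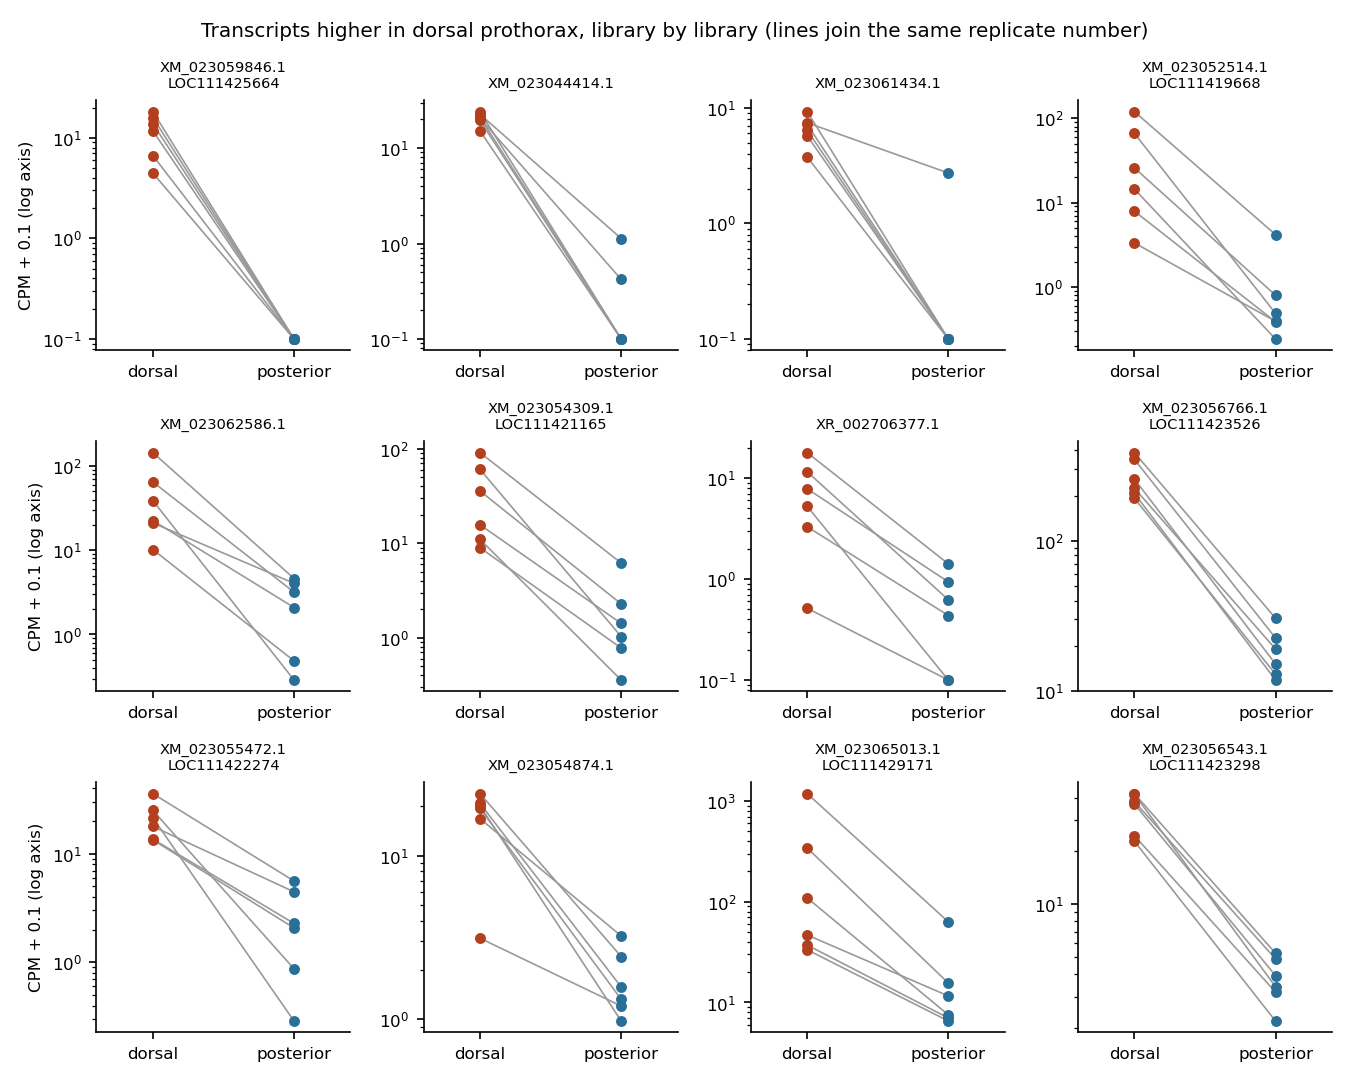
Level in each library (CPM + 0.1, log axis) of the 12 transcripts named for the largest increases in the dorsal prothorax, with lines joining libraries of the same replicate number. All lines fall from dorsal to posterior, which was a condition for naming. The spread between libraries is narrow for XM_023056766.1 (192 to 387 CPM) and wide for XM_023065013.1 (33.3 to 1187 CPM).

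Among transcripts with many counts, XM_023055119.1 (LOC111421916) stood out. It ran from 9910 through 12405 to 15607 CPM in the dorsal prothorax and from 4220 through 5059 to 5237 CPM in the posterior margin. No values overlapped, and the means of 12614 ± 2507 and 4863 ± 446 CPM differed by a log2 fold change of 1.36 ± 0.09 (edgeR adjusted p = 0.00079). The dorsal prothorax had the highest mean of the 8 tissues, followed by the support structures at 10916 CPM and the horn at 7469 CPM, and the wing had the lowest at 2415 CPM. XM_023061293.1 (LOC111426667) ran from 938 through 1241 to 1313 CPM against 407 through 502 to 558 CPM, again without overlap (log2 fold change 1.27 ± 0.10, edgeR adjusted p = 0.001). Only the dorsal head exceeded the dorsal prothorax, with 1407 ± 537 CPM.

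The other 3 transcripts named for many counts were XM_023063299.1 (5960 ± 963 against 2867 ± 855 CPM), XM_023060218.1 (LOC111425928, 3583 ± 1414 against 1226 ± 529 CPM) and XM_023044433.1 (LOC111413453, 2875 ± 461 against 1203 ± 310 CPM). Their log2 fold changes lay between 1.09 and 1.54, with edgeR adjusted p of at most 0.011. In XM_023063299.1 the horn was far above both, with 23110 CPM, and the dorsal head far below at 912 CPM. For XM_023060218.1 and XM_023044433.1 the posterior margin had the lowest mean of all 8 tissues. Each of the 5 stayed called without any 1 pair and without the block.

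Among the transcripts that the dorsal prothorax nearly lacked was XM_023058498.1 (LOC111424810). It ran from 0 through 0.114 to 0.261 CPM in the dorsal prothorax and from 15.1 through 28.8 to 33.4 CPM in the posterior margin. The groups lay far apart, with means of 0.112 ± 0.109 and 26.5 ± 7.6 CPM and a log2 fold change of -7.80 ± 0.65 (edgeR adjusted p = 0.0013). The anterior margin had 21.8 ± 8.76 CPM and the wing 19.3 ± 3.24 CPM, the carinated margin 9.91 CPM and the horn 1.42 CPM. The dorsal head had 6.91 ± 2.59 CPM and the support structures 5.49 ± 1.36 CPM. The dorsal prothorax was thus the lowest of the 8 tissues in a transcript that was not confined to the 3 margins and the wing.

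XM_023046385.1 (LOC111414917) had its highest levels in the 3 margins. It ran from 0.165 through 1.41 to 1.97 CPM in the dorsal prothorax and from 61.7 through 146 to 191 CPM in the posterior margin (log2 fold change -6.95 ± 0.61, edgeR adjusted p = 0.0015). The anterior margin had 95.1 ± 37.6 CPM and the carinated margin 28.5 ± 10.6 CPM. Outside the margins the highest mean was 5.45 CPM in the dorsal head, and all 12 wing libraries had 0. XM_023046386.1 of the neighbouring gene LOC111414918 was likewise highest in the 3 margins at lower level, but with the anterior margin on top, with 17.2 CPM in the anterior margin, 11.5 ± 5.37 CPM in the posterior margin, 5.62 CPM in the carinated margin and 0.406 ± 0.308 CPM in the dorsal prothorax (log2 fold change -4.93 ± 0.70, edgeR adjusted p = 0.008).

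XM_023044065.1 (LOC111413182) and XM_023054261.1 (LOC111421121) were highest in the posterior margin of all 8 tissues. The first ran from 3.58 through 18.3 to 57.3 CPM there and was 0 in 5 dorsal libraries and 1.65 CPM in replicate 6. Its log2 fold change was -7.83 ± 1.13 (edgeR adjusted p = 0.0088), and without replicate 6, when all dorsal libraries were at 0 and the fitted fold change is no measure of size, the adjusted p was 0.053. The second ran from 4.17 through 7.82 to 16.2 CPM in the posterior margin and from 0 through 0.0321 to 0.417 CPM in the dorsal prothorax, with no overlap (log2 fold change -6.77 ± 1.05, edgeR adjusted p = 0.011). In both, the anterior margin came second, with 6.28 and 2.25 CPM, and every other tissue had a mean below 1 CPM.

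Several other transcripts that were lower in the dorsal prothorax were also high outside the posterior margin. XM_023048045.1 (LOC111416097) had 142 ± 137 CPM in the anterior margin, 18.6 ± 16.2 CPM in the posterior margin and 0.523 ± 0.506 CPM in the dorsal prothorax (log2 fold change -5.09 ± 0.64, edgeR adjusted p = 0.0051). Its dorsal and posterior values overlapped, and the same order in all 6 pairs was a condition for naming it. XM_023045122.1 (LOC111413974) had 45.1 ± 21.3 CPM in the posterior margin, 1.64 ± 1.39 CPM in the dorsal prothorax and 143 ± 33.8 CPM in the horn. XM_023052689.1 had 128 ± 83.9 CPM in the posterior margin, 107 ± 112 CPM in the support structures and 1.6 ± 0.998 CPM in the dorsal prothorax. XM_023057888.1 (LOC111424382) had 10.3 ± 2.52 CPM in the posterior margin, 15.5 ± 3.75 CPM in the wing, 15.1 ± 5.74 CPM in the anterior margin and 0.366 ± 0.345 CPM in the dorsal prothorax. The edgeR adjusted p of these last 3 were 0.0032, 0.00084 and 0.00077.

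The remaining 3 of the 12 transcripts named for the largest decreases were XM_023051356.1, XM_023051479.1 (LOC111418807) and XM_023044698.1 (LOC111413664). XM_023051479.1 fell from 100 ± 22.2 CPM in the posterior margin to 4.96 ± 5.12 CPM, and XM_023044698.1 from 16.2 ± 8.06 to 0.88 ± 0.413 CPM. The anterior margin (73.5 and 15.3 CPM) and the carinated margin (65.5 and 13.7 CPM) were nearer to the posterior margin than to the dorsal prothorax. The support structures (55.7 and 7.42 CPM), the head (36 and 6.99 CPM) and the wing (24.4 and 7.73 CPM) also stood above the dorsal prothorax. The horn was low in both, with 2.38 CPM of XM_023051479.1, below the dorsal prothorax, and 1.65 CPM of XM_023044698.1. XM_023051356.1 had 18.7 ± 13.5 against 0.799 ± 1.06 CPM, was called with an edgeR adjusted p of 0.049, and was called in none of the fits that left out a pair. XM_023051479.1 was called in 2 of those 6 fits and XM_023044065.1 in 5, and the other 9 of the 12 in all of them.

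**Figure D3:**
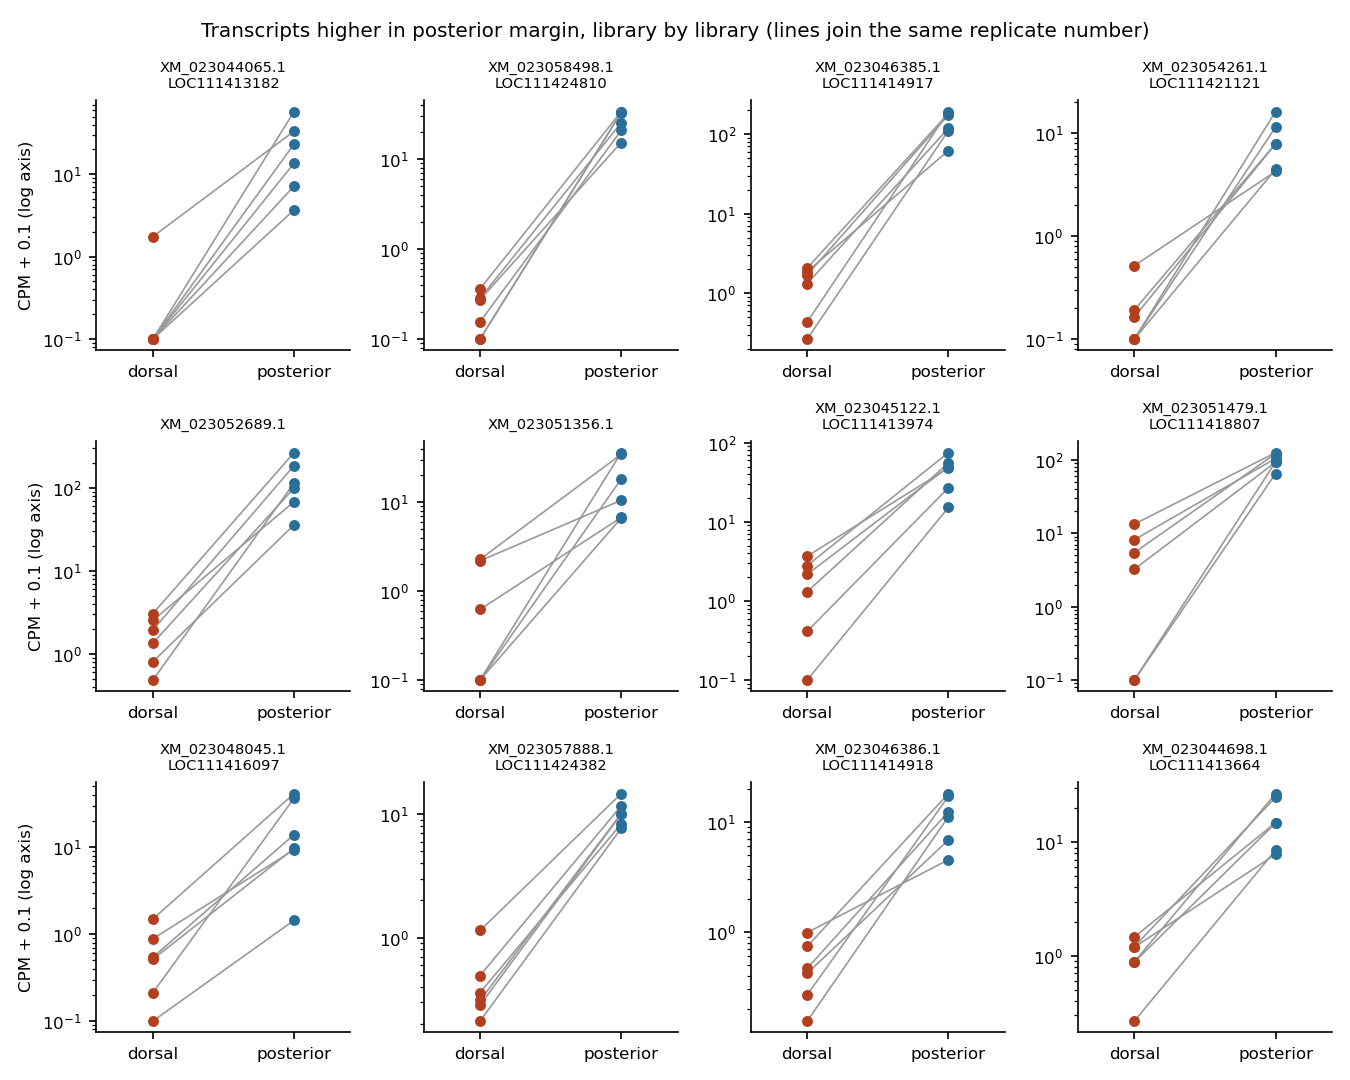
Level in each library (CPM + 0.1, log axis) of the 12 transcripts named for the largest decreases in the dorsal prothorax, with lines joining libraries of the same replicate number. All lines rise from dorsal to posterior, which was a condition for naming. XM_023046385.1 runs from 0.165 to 1.97 CPM in the dorsal prothorax and from 61.7 to 191 CPM in the posterior margin.

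Among transcripts with many counts, XM_023065039.1, which matched no gene, had the widest gap. It ran from 307 through 367 to 736 CPM in the dorsal prothorax and from 2491 through 3357 to 5156 CPM in the posterior margin. All dorsal values lay below all posterior ones (log2 fold change -3.06 ± 0.11, edgeR adjusted p = 0.00016), and the dorsal prothorax was the lowest of the 8 tissues, the wing following at 2539 CPM and the horn and head reaching 12012 and 12177 CPM. XM_023054177.1 (LOC111421060) ran from 346 through 540 to 775 CPM and from 1603 through 2357 to 2923 CPM, without overlap (log2 fold change -2.15 ± 0.10, edgeR adjusted p = 0.0002). Its level in the horn was 6859 CPM and in the support structures 207 CPM.

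The other 3 were XM_023063173.1 (LOC111427831, 3223 ± 854 against 8270 ± 1453 CPM), XM_023051587.1 (LOC111418884, 842 ± 402 against 2128 ± 809 CPM) and XM_023057956.1 (LOC111424433, 521 ± 177 against 1382 ± 436 CPM). Their log2 fold changes lay between -1.42 and -1.39, with edgeR adjusted p of at most 0.0071 and no overlap between tissues. XM_023051587.1 and XM_023057956.1 had their lowest mean in the horn, at 267 and 116 CPM, and the dorsal prothorax was second lowest in both.

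The transcripts that took the most counts were shifted towards the posterior margin as a group. Of the 20 with the highest mean CPM over both tissues, 13 were called lower in the dorsal prothorax and 1 higher, XM_023055119.1, where 5.39% and 5.25% of all tested transcripts were. A negative log2 fold change was found for 16 of the 20 and for 6140 of the 12050 tested. Their median log2 fold change was -0.40, against -0.010 over all tested transcripts. Together they took 44.6% to 48.7% of the counts of a dorsal library (median 45.4%) and 51.4% to 54.7% of a posterior one (median 52.1%), ranges that did not overlap. The log2 fold changes of the 20 ran from -0.98 to 1.36, and none of the 13 called lower differed by 2-fold. The largest count belonged to XM_023050859.1, with 77379 ± 9211 against 100445 ± 9134 CPM (log2 fold change -0.38 ± 0.07, edgeR adjusted p = 0.024). Scaled by total counts alone, 9 of the 20 were called lower, with a median of -0.24 against 0.15 for all transcripts, and without the replicate block 4 were called lower. Among the 100 most counted transcripts 20 were higher and 36 lower, with a median of -0.12, and among the 1000 most counted 211 were higher and 153 lower, with a median of 0.07.

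**Figure D4:**
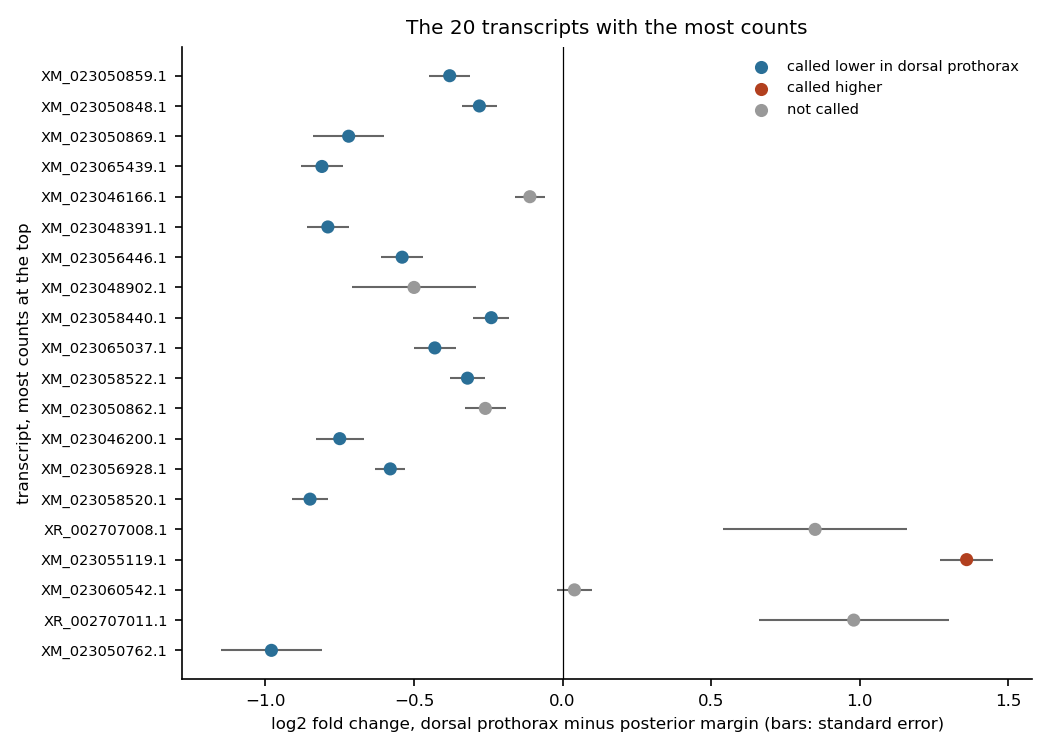
Log2 fold change (dorsal prothorax minus posterior margin) with its standard error for the 20 transcripts with the most counts, ordered from the most counts at the top. The 13 blue points are called lower in the dorsal prothorax, the 1 red point, XM_023055119.1 at 1.36, is called higher and the grey points are not called.

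A block of genes in the RefSeq gene order held 3 of these 20 transcripts, and was chosen after its values were seen. From LOC111418336 to LOC111418349 the table lists 10 genes in a row, of which 8 could be tested as gene sums; 7 were called lower and 1 higher in the dorsal prothorax, where 22.6% of all 7017 gene sums were called, 887 of them lower. Genes at very different levels took part. LOC111418334 ran from 46441 through 57332 to 62232 CPM and from 58808 through 69205 to 76813 CPM (log2 fold change -0.28 ± 0.07, edgeR adjusted p = 0.015). In the middle of the block LOC111418341 ran from 15.8 through 73.6 to 120 CPM and from 213 through 621 to 1105 CPM (-3.32 ± 0.14, edgeR adjusted p = 7e-06). LOC111418347 and LOC111418346 beside it had log2 fold changes of -3.27 and -2.87, whereas LOC111418344, between LOC111418341 and LOC111418349, was higher in the dorsal prothorax in 5 of 6 pairs (0.78 ± 0.17, edgeR adjusted p = 0.013). LOC111418341 reached 1438 CPM in the horn and 51.9 CPM in the support structures. Expected counts divide reads between near-identical genes, and how far these neighbours share reads was not tested.

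Neighbouring genes shared their direction more generally. Of 167 genes that were at least 2-fold higher in the dorsal prothorax and had a next tested gene on the same chromosome, 17 (10.2%) were followed by another such gene, against 2.49% of all 6712 tested genes with a next gene. For genes at least 2-fold lower, 30 of 267 (11.2%) were followed by another, against 3.98% of all. These made 32 runs of 2 genes, 6 of 3 genes and 1 of 4 genes. The run of 4, all higher in the dorsal prothorax, was LOC111421907 (log2 fold change 2.07), LOC111421916 (1.36), LOC111422129 (1.37) and LOC111422095 (1.25), the second being the gene of XM_023055119.1. The support structures had the highest level of the 8 tissues for LOC111421907 (152 CPM), LOC111422129 (324 CPM) and LOC111422095 (2299 CPM), but not for LOC111421916. A run of 3 held the margin genes LOC111413966, LOC111414918 and LOC111414917, with log2 fold changes of -5.03, -4.73 and -6.87 as gene sums. Runs of more than 2 genes were named after their values were seen.

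In most transcripts that differed at least 2-fold, the anterior and carinated margins were nearer in level to the posterior margin than to the dorsal prothorax. A tissue was counted on the posterior side when its mean lay nearer to that of the posterior margin than to that of the dorsal prothorax on the scale of log2(CPM + 0.1). For the 259 transcripts at least 2-fold higher in the dorsal prothorax, the anterior margin was on the posterior side in 83%, the carinated margin in 81.1%, the wing in 76.1% and the head in 73.7%, against 67.3%, 68%, 64% and 67% over all 12050 tested transcripts. For the 301 at least 2-fold lower, the anterior margin was on the posterior side in 83.1% and the carinated margin in 74.1%, but the head in 62.8% and the wing in 48.2%. The support structures were on the posterior side in 59.8% and 57.5% of the 2 sets, near their 57.7% of all tested. The horn was on the posterior side in 47.5% and 50.2% of the 2 sets, against 50.9% over all tested transcripts. The horn shares depend on the scaling, because the TMM factors of the 6 horn libraries were low, from 0.519 to 0.6291. With levels scaled by total counts alone, a comparison chosen after seeing the data, the horn was on the posterior side in 73.4% and 32.6% of the sets and 66.2% of all tested. The head was there in 83% and 50.5% of the sets, against 67.5% of all tested. The anterior margin stayed at 83.8% and 82.7%, against 65.7% of all tested. The carinated margin was then on the posterior side in 84.9% of the higher transcripts but in 68.8% of the lower ones, below its 71.6% of all tested.

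The dorsal prothorax had the highest mean of the 8 tissues in 136 of the 259 higher transcripts (52.5%) and in 18.9% of all tested, a share that the choice of the 259 raises by itself. In the others the top was mostly the horn (61 transcripts, 23.6% against 16.7% of all tested) or the support structures (43, 16.6% against 13.7%). All ranks here use TMM-scaled means, which stand higher in the horn than total counts alone would give. They were not counted on the scale of total counts. Of the 259, the anterior margin was on top in 1 (0.386%, against 4.63% of all tested) and the carinated margin in 0 (against 2.17%). The head and the wing were each on top in 9 (3.47%, against 28.6% and 9.45% of all tested). Of the 301 lower transcripts, 69 (22.9%, against 5.75% of all tested) had their highest mean in the posterior margin, a share likewise raised by the choice. The head was on top in 66 (21.9%, against 28.6%), the support structures in 62 (20.6%, against 13.7%), the horn in 50 (16.6%, against 16.7%) and the anterior margin in 32 (10.6%, against 4.63%). The dorsal prothorax was the lowest of the 8 tissues in 112 of them (37.2%, against 11.8% of all tested), which the choice of the 301 also raises.

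Over all tested transcripts the mean profile of the dorsal prothorax lay at a root mean squared log2 difference of 0.839 from the carinated margin, 0.846 from the posterior margin, 0.891 from the anterior margin, 1.08 from the wing, 1.31 from the head, 1.32 from the support structures and 1.37 from the horn. The posterior margin lay nearer to the other margins, at 0.631 from the carinated and 0.648 from the anterior margin. The distances from the dorsal prothorax to the 3 margins were alike, and no test was made of their order.

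**Figure D5:**
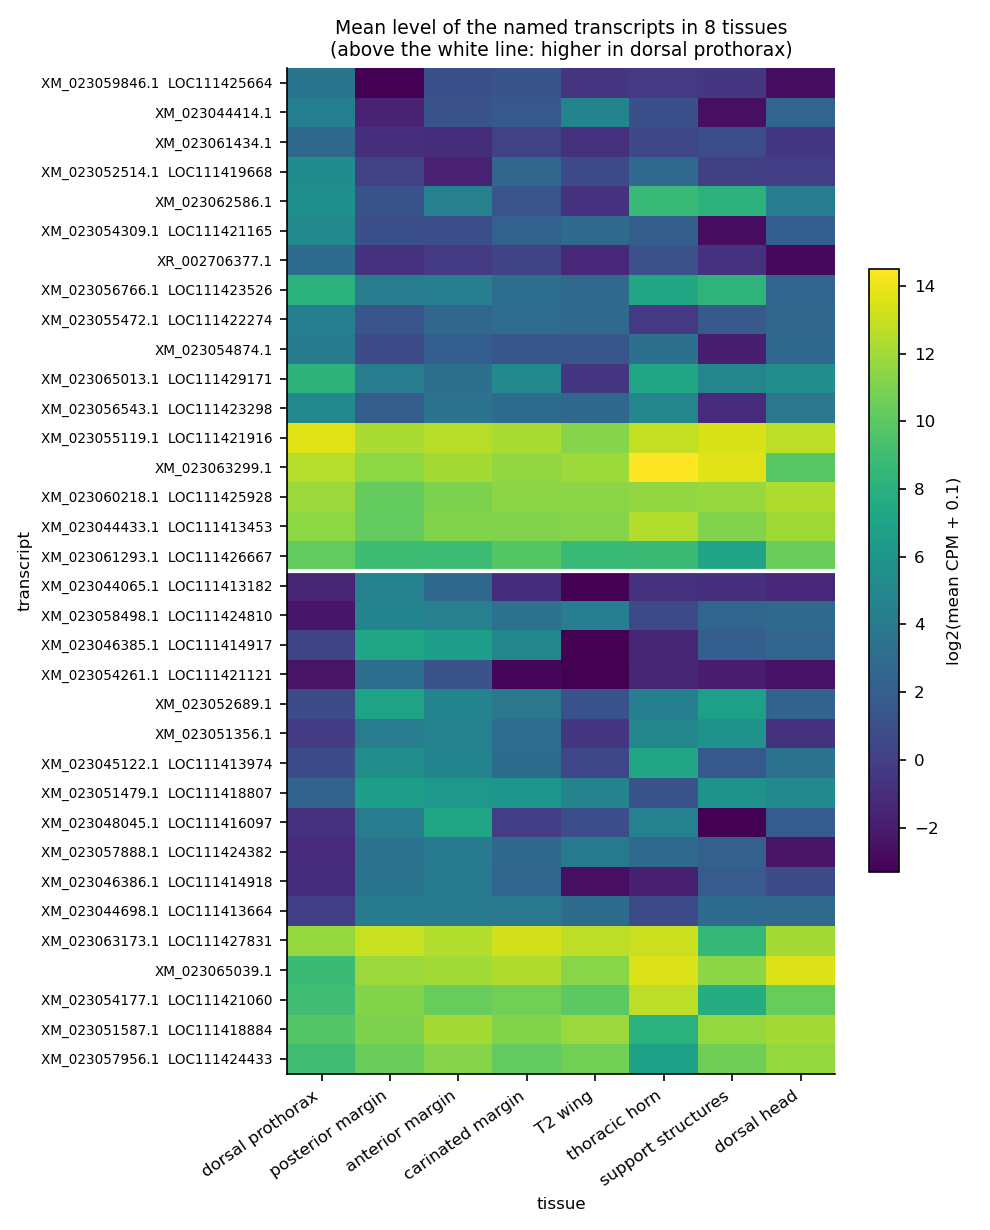
Mean level, as log2(CPM + 0.1), of the 34 transcripts named by size of change or by count in each of the 8 tissues, with transcripts higher in the dorsal prothorax above the white line. Below the line the anterior margin column is mostly as bright as that of the posterior margin, as for XM_023046385.1 with 95.1 and 139 CPM; above it, XM_023056766.1 and XM_023062586.1 are bright in the horn and the support structures.

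In 46 genes more than 1 transcript was called, and in 5 of them transcripts went in opposite directions. For 2 of these both transcripts differed at least 2-fold, and they were named after their values were seen. LOC111414535 had a first transcript, XM_023045906.1, whose dorsal values ran from 30.9 through 53.4 to 79.9 CPM and posterior values from 10.2 through 18.2 to 25.6 CPM. Its second, XM_023045901.1, ran from 5.41 through 6.35 to 9.89 CPM in the dorsal prothorax and from 48.7 through 91.9 to 105 CPM in the posterior margin. The tissues did not overlap in either transcript, and the log2 fold changes were 1.55 ± 0.31 and -3.57 ± 0.21 (edgeR adjusted p = 0.028 and 0.00055). The gene's sum was not called, at -0.77 (edgeR adjusted p = 0.08). The first transcript was thus higher in the dorsal prothorax and the second in the posterior margin. The support structures had the highest mean of the 8 tissues for both the first and the second, with 59.5 and 101 CPM. The anterior margin had 26.9 and 76.7 CPM, the carinated margin 19.4 and 34.5 CPM, and the wing 29.2 and 34.8 CPM. The head had 31.9 and 30.7 CPM and the horn 0.96 and 2.52 CPM.

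In LOC111428300 the dorsal mean of XM_023063763.1 was 24.8 ± 6.99 CPM and its posterior mean 6.32 ± 3.33 CPM, while those of XM_023063762.1 were 13.9 ± 6.04 and 29.7 ± 10.1 CPM. The log2 fold changes were 2.10 ± 0.42 and -1.11 ± 0.23 (edgeR adjusted p = 0.027 and 0.031), with values of the second overlapping between tissues. Each was called in 2 of the 6 fits that left out a pair, as was XM_023045906.1, whereas XM_023045901.1 was called in all 6. Reads are divided between transcripts of a gene by estimation, so a shift between transcripts is less certain than the level of the gene.

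Of 564 non-coding transcripts tested, 38 were higher and 15 lower in the dorsal prothorax, 9.4% in all against 10.6% of all tested transcripts. The directions were less even than over all tested, where 5.25% were higher and 5.39% lower. The median log2 fold change of the non-coding transcripts was 0.21, against -0.010 over all tested. Symbols other than locus numbers belonged to 42 tested transcripts of 32 genes, of which 1 was higher and 4 were lower, a share near the 10.6% called among all tested. S1 had 20.5 ± 2.24 CPM in the dorsal prothorax and 16.3 ± 1.84 CPM in the posterior margin (log2 fold change 0.33 ± 0.08, edgeR adjusted p = 0.041). The lower ones were RFeS (-0.35), CB (-1.39), MR (-0.59) and REPTOR-B (-1.33), with edgeR adjusted p between 0.015 and 0.038. REPTOR-B ran from 1.32 through 2.25 to 5.39 CPM in the dorsal prothorax and from 4.3 through 5.95 to 11 CPM in the posterior margin, and the values overlapped. The MR value belongs to 1 of 6 tested transcripts of its gene, whose sum was not called (-0.29, edgeR adjusted p = 0.096). Of the 6 fits that left out a pair, RFeS and S1 were called in 0, CB in 1, MR in 2 and REPTOR-B in 5. None of these 5 calls held without the replicate block, where edgeR adjusted p lay between 0.071 and 0.38. Several of these symbols appear shortened in the gene table, so no function is given to them.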

How the data were processed

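Per the labels' protocols, RNA was extracted with a Qiagen RNeasy Plus Micro kit for TruSeq stranded mRNA libraries. The submitters' processing notes list Trimmomatic 0.32, Bowtie2 2.3.2, RSEM 1.3.0 and DESeq2, and no genome build or strand setting is given. The authors deposited 1 unscaled table of expected counts for 23725 transcripts in 60 columns, which were rounded here. After filterByExpr (minimum count 10, minimum total 15), edgeR 4.0.16 (limma 3.58.1, R 4.3.3) fitted tissue and replicate number in the 12 libraries by quasi-likelihood, with TMM factors from all 60 columns. A standard error is the size of the log2 fold change over the square root of its F statistic. The steps were tested on simulated data.

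Replicate numbers come from the labels. For the dorsal prothorax and posterior margin nothing beyond the words biological replicates ties libraries to animals. The series description does so for left and right pieces. The p-values therefore measure spread between libraries and not between known animals. With the replicate block this is the spread left after differences between replicate numbers are fitted. Deviations from tissue means correlated at 0.185 to 0.32 between same-numbered dorsal and posterior libraries and at most at 0.0554 between others, so the numbers were taken as pairs. RefSeq assembly IU_Otau_3.0 was used for names and gene order only: 15104 transcripts, with 72.2% of counts, matched 10670 genes. Carinated margin and wing columns carry no side, so their means are over 12 columns. Named were called transcripts with all 6 pairs and any gene sum alike: the 12 with the largest change each way (mean of at least 5 CPM in the higher tissue), the 5 with the highest level among those at least 2-fold, and, with no such conditions, called transcripts with a symbol. Members, lists and rules were chosen with earlier results of these data known. Protein and promoter motifs were not analysed here. Alternatives were DESeq2 1.42.0, no replicate block, other scalings, no filter, 5 tissues in the fit, gene sums and leaving out each pair.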

Additional observations from a re-analysis of the deposited data

Results flagged for a closer look

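Of 92 groups of 6 values examined, 7 held a value far from the others by Dixon's criterion (gap over range above 0.625), which chance passes in about 1 in 20. The distance of posterior margin libraries to their own tissue mean reached 0.659 because of replicate 4. Without replicate 4 edgeR called 1069 transcripts, 509 higher and 560 lower, and 929 of the 1282 calls were among them in the same direction. The other 6 were levels on the scale of log2(CPM + 0.5). XM_023061434.1 in the posterior margin reached 1, since replicate 5 had 2.63 CPM and the other 5 libraries 0, and XM_023052514.1 there at 0.682, since replicate 4 had 4.07 CPM and the next library 0.697 CPM. In the dorsal prothorax XM_023054874.1 reached 0.821 for a low replicate 1 (3.02 CPM against at least 16.7 CPM), and XM_023044698.1 at 0.636 for a low replicate 5 (0.165 CPM). XM_023044065.1 reached 1 for replicate 6 (1.65 CPM against 0), and XM_023054261.1 at 0.722 for replicate 2 (0.417 CPM).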

How the results depend on the processing

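Without the replicate block edgeR called 609 transcripts and 685 gene sums, and 45.3% of transcript calls were higher in the dorsal prothorax. DESeq2 called 2362 transcripts (1249 higher, 1113 lower), with a share higher of 52.9%. Of these 2362, 920 differed at least 2-fold. All 1282 transcripts called by edgeR were among the 2362 in the same direction. Scaling by RLE size factors moved the share to 52.2%. Total counts moved it to 73.6%, and for gene sums to 72.9% from 44.1%. Leaving out each pair in turn gave 712 to 1069 transcripts, 413 to 534 at least 2-fold, 1132 to 1545 gene sums and a share of 47.6% to 53.5%. The count moved by over 1.5 times without pairs 1 (851), 2 (793), 5 (712) and 6 (758). Scaled by total counts, the horn lay on the dorsal side in 69 of the 259 higher transcripts instead of 136, and the head in 44 instead of 68. The other 22 of 24 counts of levels moved by less than 1.5 times. As gene sums, XM_023045906.1 turned to -0.77 and XM_023063762.1 to 0.44, sums that include the gene's other transcripts. Over the 43 named transcripts and all alternatives, 512 of 593 values kept direction and call, 79 lost the call and 2 turned. Where no cause is given, the cause was not tested. Depth limits the lowest transcripts: a level of 0 allows up to 3 counts in a library, for counting error only.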

Other observations

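A few transcripts with many counts elsewhere were near 0 in several regions under the same replicate number. Of 1106 tested transcripts with a median of at least 50 CPM in both tissues, 4 were below 1% of the median in the dorsal and the posterior library of the same replicate number, and none of the 4 was called. XM_023048902.1 had 6677 to 26046 CPM in dorsal replicates 1 to 5 and 0.183 CPM in replicate 6, and 11465 to 34131 CPM in posterior replicates 1 to 5 and 0 in replicate 6. Replicate 6 was also at 0.164 CPM in the anterior margin, 0.464 CPM in the horn and 0 in the support structures, where no other library was below 5872 CPM. The wing and the carinated margin had 2 such low columns of 12 each, and the head had none, its lowest value being 26615 CPM. Replicate numbers of the head did not pair with those of the dorsal prothorax. Deviations from tissue means correlated at -0.128 to 0.0466 between same-numbered libraries of these tissues and at up to 0.143 between others. The head libraries can therefore not be taken as the same animals. XM_023049126.1 was 0 in replicates 2, 3 and 5 of both tissues and at 102 to 292 CPM in the other 3 dorsal and 184 to 534 CPM in the other 3 posterior libraries. XM_023062784.1 was 0 in replicates 2, 4 and 5 of both, and at 235 to 373 CPM and 171 to 195 CPM in the others, and at most 0.647 CPM in the head. XR_002707187.1 was 0 in replicate 6 of both and at 69.9 to 175 CPM and 64.1 to 151 CPM in the others.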
